A study of Mus musculus with 111 samples.

Results

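Small RNA of mouse heart was compared after 6 months on a high-fat diet, in which fat supplied 60% of calories, and on its matched high-fat control diet, in which it supplied 7.2%. The 2 groups were the read-count columns named for heart on these diets, 4 high-fat and 5 high-fat control libraries, which are 9 of the 19 heart libraries and of 111 libraries in the series. The other heart libraries came from mice on a low-protein diet or its own control diet. The libraries were made by OTTR-seq, in which 1 enzyme copies an RNA and adds both adapters during that copying step. The labels give no genotype, strain, sex or age for the animals, which were group-housed, and do not say whether each library is a different animal. The p-values therefore measure the spread between libraries, which may be partly technical. In the main test of single features that spread was estimated from all 19 heart libraries.

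Cytosolic tRNAs are transcribed in the nucleus and carry amino acids to cytosolic ribosomes, and mitochondria use a separate set of tRNAs that is cut from long transcripts of both strands of the mitochondrial genome. Heart muscle is rich in mitochondria. The table counts reads per named small RNA, so any reads of a whole tRNA and of its fragments would fall under the same name. The lengths of the reads counted are not given. In such bulk tissue, fewer cells of a type and less RNA per cell cannot be told apart.

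The 4 high-fat libraries held 690671, 327685, 492468 and 627594 reads over the 1042 named features analysed. The 5 high-fat control libraries held 661619, 297838, 350103, 11320 and 527846 reads. High-fat control replicate 4 was thus far shallower than the others, and 137 features were detected in it against 366 to 467 in the other 8 libraries. A feature with 0 reads there may still stand at up to 265 RPM (reads per 1000000 feature reads), the level of 3 reads in that library. In the other 8 libraries that limit was 4.34 to 10.1 RPM. Intervals and limits of this kind cover counting error only. No microRNA marker of heart muscle, liver or blood could be checked, since 0 of 7, 0 of 1 and 0 of 2 such genes were in the table. The label of the tissue was therefore not tested against its own markers.

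Mitochondrial tRNAs made up most of the reads in every library. Their share was 56.03%, 61.9%, 67.4% and 72.2% in high-fat hearts and 76.4%, 79.7%, 71.5%, 85.6% and 82.7% in high-fat control hearts. The groups overlapped by 1 library on each side, since high-fat replicate 4 lay above high-fat control replicate 3. The mean was 64.4% ± 6.98 in high-fat hearts (SD, n = 4) and 79.2% ± 5.48 in high-fat control hearts (SD, n = 5), a difference of -14.8 percentage points with p = 0.0317 in a two-sided exact permutation test and 0.0952 after Benjamini-Hochberg adjustment over 9 classes. In the shallow control library the exact (Clopper-Pearson) 95% interval of this share was 84.9% to 86.2%, so counting error was small beside the spread between libraries.

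Cytosolic tRNAs, in contrast, held a larger mean share in high-fat hearts. They took 39.4%, 31.4%, 25.6% and 24.9% of reads in high-fat hearts, and 19.8%, 17.1%, 24.9%, 10.2% and 13.8% in high-fat control hearts. High-fat replicate 4, at 24.85%, and high-fat control replicate 3, at 24.91%, were nearly level, and all other high-fat libraries were above all other control libraries. The mean was 30.3% ± 6.74 in high-fat hearts (SD, n = 4) and 17.2% ± 5.63 in high-fat control hearts (SD, n = 5), with an exact permutation p of 0.0317 and an adjusted p of 0.0952. Shares of one library sum to a fixed total, so a gain of the cytosolic and a loss of the mitochondrial tRNAs cannot be told apart. Of non-mitochondrial reads alone, the share of cytosolic tRNAs differed by 3.26 percentage points (high-fat minus high-fat control, adjusted p = 0.583, exact permutation test).

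**Figure D1:**
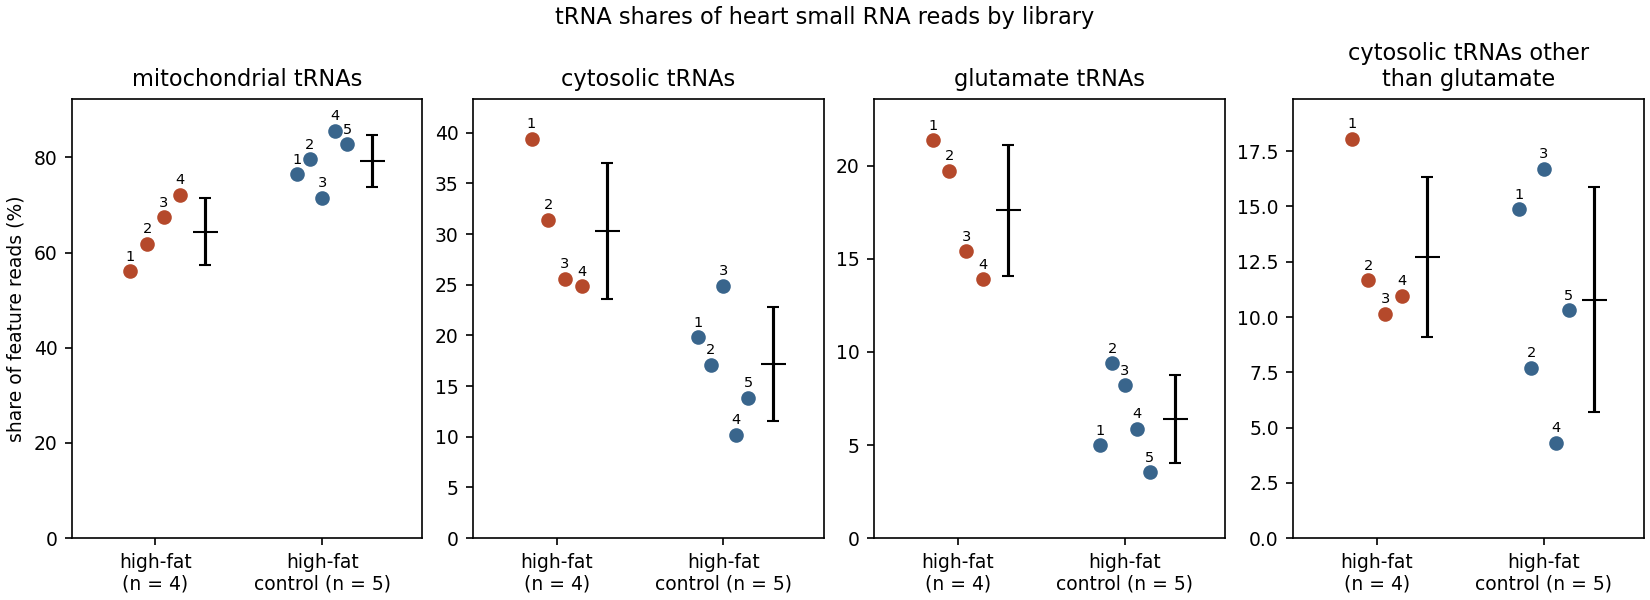
Share of feature reads (y axis, percent) taken by mitochondrial tRNAs, all cytosolic tRNAs, glutamate tRNAs and the other cytosolic tRNAs in high-fat and high-fat control hearts; numbered points are replicate libraries, and bars are mean ± SD. The glutamate tRNAs separate the groups, with 13.9% to 21.4% in high-fat hearts and 3.54% to 9.39% in high-fat control hearts, whereas the other cytosolic tRNAs overlap.

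Of the difference of 13.1 percentage points in cytosolic tRNA, 11.2 lay in the glutamate tRNAs, which decode the codons GAA and GAG. Glutamate tRNAs took 21.4%, 19.7%, 15.4% and 13.9% of all reads in high-fat hearts, and 4.98%, 9.39%, 8.20%, 5.87% and 3.54% in high-fat control hearts. Every high-fat library was above every control library. The mean of 17.6% ± 3.52 in high-fat hearts (SD, n = 4) was 2.75 times the mean of 6.40% ± 2.38 in high-fat control hearts (SD, n = 5). The exact permutation p was 0.0159, the smallest that 4 against 5 libraries can give, and the adjusted p over 19 amino acid families was 0.302. Glutamate was the 1 family of 19 whose groups did not overlap.

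Without glutamate, cytosolic tRNAs held 18.1%, 11.7%, 10.2% and 10.96% of reads in high-fat hearts. The high-fat control hearts gave 14.9%, 7.72%, 16.7%, 4.32% and 10.3%. These values overlapped, with means of 12.7% ± 3.62 in high-fat hearts (SD, n = 4) and 10.8% ± 5.08 in high-fat control hearts (SD, n = 5). Within cytosolic tRNA reads alone, glutamate tRNAs made up 54.2% to 62.8% in high-fat hearts and 25.1% to 57.6% in high-fat control hearts, so on that scale the groups overlapped, through control replicates 2 and 4.

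Between 99.9% and 100% of the glutamate tRNA reads fell under 3 names. tRNA-Glu-CTC-1, which reads GAG, stood at 84062, 66485, 72768 and 49355 RPM in high-fat hearts. High-fat control hearts had tRNA-Glu-CTC-1 at 23755, 28495, 35518, 23763 and 13261 RPM. The lowest high-fat library was above the highest control library. Its log2 fold change was 1.38 ± 0.53 (SE), with an adjusted p of 0.140 in edgeR's quasi-likelihood test over all features.

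The 2 abundant glutamate tRNAs with the anticodon TTC, which read GAA, showed the same separation. tRNA-Glu-TTC-1 stood at 63560, 69613, 45459 and 48876 RPM in high-fat hearts and at 13973, 32333, 23767, 19346 and 12223 RPM in high-fat control hearts. It had a mean of 56877 ± 11565 RPM in high-fat hearts (SD, n = 4) and 20329 ± 8108 RPM in high-fat control hearts (SD, n = 5), a log2 fold change of 1.31 ± 0.53 (SE; adjusted p = 0.175, edgeR). tRNA-Glu-TTC-2 had a mean of 50788 ± 14823 RPM in high-fat hearts (SD, n = 4) and 18624 ± 9369 RPM in high-fat control hearts (SD, n = 5), a log2 fold change of 1.22 ± 0.53 (SE; adjusted p = 0.220, edgeR). The ratio of tRNA-Glu-CTC-1 to tRNA-Glu-TTC-1 reads ran from 0.955 to 1.601 in high-fat hearts and from 0.881 to 1.70 in high-fat control hearts, so the balance of the anticodons overlapped between the diets. All 7 glutamate tRNA names tested had a positive log2 fold change, with a median of 1.38 and a range of 1.22 to 1.64, beside a median of 0.21 over all 242 features tested. For 5 of the 7 every high-fat library was above every control library, and 0 of 7 were called at an adjusted p under 0.05.

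These 3 names passed the threshold when edgeR was fitted to the 9 libraries alone, in place of the 19 heart libraries that share 1 estimate of spread in the main fit. The adjusted p was then 0.00523 for tRNA-Glu-CTC-1, 0.00523 for tRNA-Glu-TTC-1 and 0.00632 for tRNA-Glu-TTC-2. When high-fat control replicate 4 was also left out of that 9-library fit, tRNA-Glu-TTC-2 no longer passed, with an adjusted p of 0.166, while tRNA-Glu-CTC-1 stood at 0.00659 and tRNA-Glu-TTC-1 at 0.0269. In the fit of all heart libraries without high-fat control replicate 2, tRNA-Glu-TTC-1 and tRNA-Glu-TTC-2 both had an adjusted p of 0.0431. Near-identical tRNA copies can share reads, so the division among the 3 names is uncertain.

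**Figure D2:**
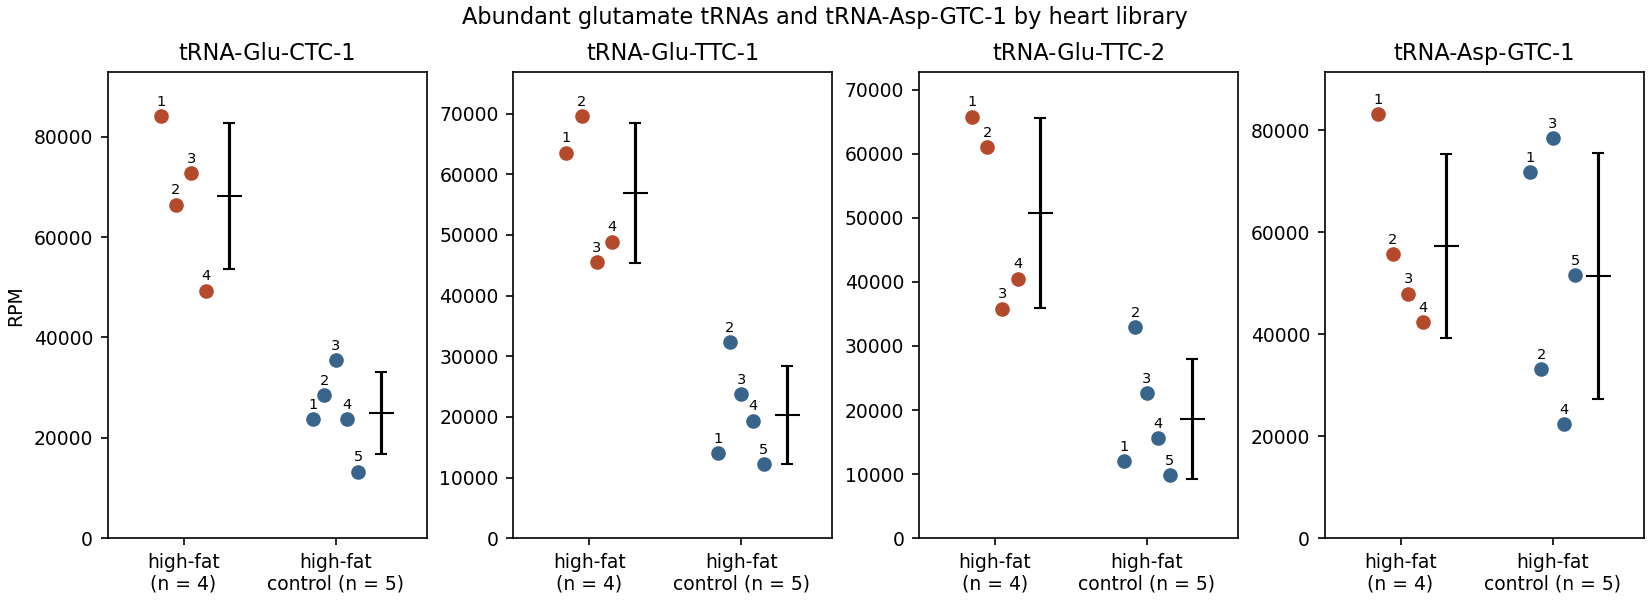
Level in RPM (y axis) of the 3 abundant glutamate tRNAs and of tRNA-Asp-GTC-1 in each high-fat and high-fat control heart library; numbered points are replicates, and bars are mean ± SD. For the glutamate tRNAs all 4 high-fat libraries are above all 5 control libraries, and for tRNA-Asp-GTC-1 the groups overlap.

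tRNA-Asp-GTC-1, the aspartate tRNA and the most abundant cytosolic tRNA in the mean of the 9 libraries, stood at 83158, 55697, 47940 and 42304 RPM in high-fat hearts. Its levels in high-fat control hearts were 71813, 33182, 78420, 22350 and 51515 RPM. The groups overlapped across most of their range, and the log2 fold change was 0.09 ± 0.53 (SE; adjusted p = 0.991, edgeR). The other abundant cytosolic tRNAs named by rank were tRNA-Asp-GTC-2, tRNA-Lys-CTT-2, tRNA-Lys-CTT-3, tRNA-Gly-GCC-2, tRNA-Gly-GCC-4 and tRNA-Gln-CTG-2. Their log2 fold changes lay between -0.15 for tRNA-Asp-GTC-2 and 0.33 for tRNA-Gly-GCC-4, all with SE 0.53 and none called, and all 6 groups of values overlapped. For tRNA-Asp-GTC-1 the 95% interval of the log2 fold change was -0.94 to 1.12.

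Over all cytosolic tRNAs, 98 of 213 names passed the filter on low counts, 75 of them had a positive log2 fold change, and their median was 0.31. The 9 valine tRNA names tested were all positive, with a median of 1.14 and a range of 0.01 to 1.85, and none was called. The highest of these belonged to a scarce name: tRNA-Val-AAC-2, at 40.2 ± 15.5 RPM in high-fat hearts (SD, n = 4) and 7.87 ± 9.09 RPM in high-fat control hearts (SD, n = 5), had a log2 fold change of 1.85 ± 0.58 (SE; adjusted p = 0.0787, edgeR). The more abundant tRNA-Val-CAC-2, at 1348 ± 519 RPM in high-fat hearts (SD, n = 4) and 1095 ± 703 RPM in high-fat control hearts (SD, n = 5), had one of 0.21 ± 0.54 (SE). For leucine 11 of 12 names were positive with a median of 0.38, for arginine 9 of 14 with 0.10, for serine 8 of 9 with 0.15 and for aspartate 2 of 4 with -0.02. Initiator methionine tRNA, which starts translation, had a log2 fold change of -0.01, and selenocysteine tRNA, which recodes UGA, one of -0.34.

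Mitochondrial tRNAs were described as a set of 22, of which 21 passed the filter. None was called, 7 were positive, and the median log2 fold change was -0.12, with a range of -0.65 for mt-tRNA-Phe-GAA-1 to 0.17 for mt-tRNA-Gln-TTG-1. The median of all 242 features was 0.21, so mitochondrial tRNAs lay below it. The 13 tested genes on the heavy-strand transcript had a median of -0.13 and the 8 on the light-strand transcript one of -0.10. The median of the mitochondrial tRNAs was -0.24 with RLE factors and -0.07 with total counts, and it was positive at 0.03 without high-fat replicate 1 and at 0.03 without high-fat replicate 4. It was -0.36 over all entries as deposited and -0.41 in the 9-library fit without high-fat control replicate 4, the lowest of the alternatives.

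The lower mean share of mitochondrial tRNAs in high-fat hearts lay in 1 RNA. mt-tRNA-Val took 28.8% ± 12.6 of reads in high-fat hearts (SD, n = 4) and 43.3% ± 15.6 in high-fat control hearts (SD, n = 5). This tRNA, encoded between the 2 mitochondrial ribosomal RNA genes and, in human mitochondria, also built into the ribosome, was the most abundant feature in the mean of the 9 libraries. It is shown with its anticodon in capitals, from the GRCm38 genome at chrM:1025-1093, plus strand.
mt-tRNA-Val-TAC-1: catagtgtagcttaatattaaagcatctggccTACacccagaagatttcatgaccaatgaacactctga

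The level of mt-tRNA-Val-TAC-1 was 161705, 233489, 300964 and 457509 RPM in high-fat hearts. In high-fat control hearts it was 355387, 487695, 212412, 626502 and 481741 RPM. The groups overlapped, since high-fat replicate 4 was above 2 control libraries and control replicate 3 was below 3 high-fat libraries. Its log2 fold change was -0.64 ± 0.52 (SE; adjusted p = 0.822, edgeR), and in the 9-library fit it was -0.86 with an adjusted p of 0.0478, which became 0.521 when the shallow high-fat control replicate 4 was left out. Mitochondrial tRNAs other than valine held 39.9%, 38.5%, 37.3% and 26.4% of all reads in high-fat hearts. The high-fat control hearts gave 40.9%, 30.9%, 50.3%, 22.9% and 34.6%. The means of these shares were close, 35.5% ± 6.16 in high-fat hearts (SD, n = 4) and 35.9% ± 10.3 in high-fat control hearts (SD, n = 5).

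Among the others, mt-tRNA-Met-CAT-1 was next in abundance, with 125390, 127229, 143926 and 71209 RPM in high-fat hearts. Its levels in high-fat control hearts were 137058, 96368, 126486, 73145 and 88694 RPM. These ranges overlapped almost fully, and its log2 fold change was 0.11 ± 0.52 (SE; adjusted p = 0.991, edgeR). mt-tRNA-Phe-GAA-1, the first gene of the heavy-strand transcript, stood at 802, 848, 786 and 817 RPM in high-fat hearts and at 1312, 1202, 1357, 442 and 1383 RPM in high-fat control hearts. All high-fat libraries were below 4 of the 5 controls and above the shallow one, whose 442 RPM rest on 5 reads, and the log2 fold change was -0.65 ± 0.52 (SE; adjusted p = 0.817, edgeR). mt-tRNA-Arg-TCG-1 followed with -0.46 ± 0.53 and mt-tRNA-Asp-GTC-1 with -0.41 ± 0.54 (SE), and the remaining 17 lay between -0.28 and 0.17. The 2 mitochondrial ribosomal RNAs were positive, mt-Rnr1 with 0.75 ± 0.52 and mt-Rnr2 with 0.71 ± 0.53 (SE), and neither was called.

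**Figure D3:**
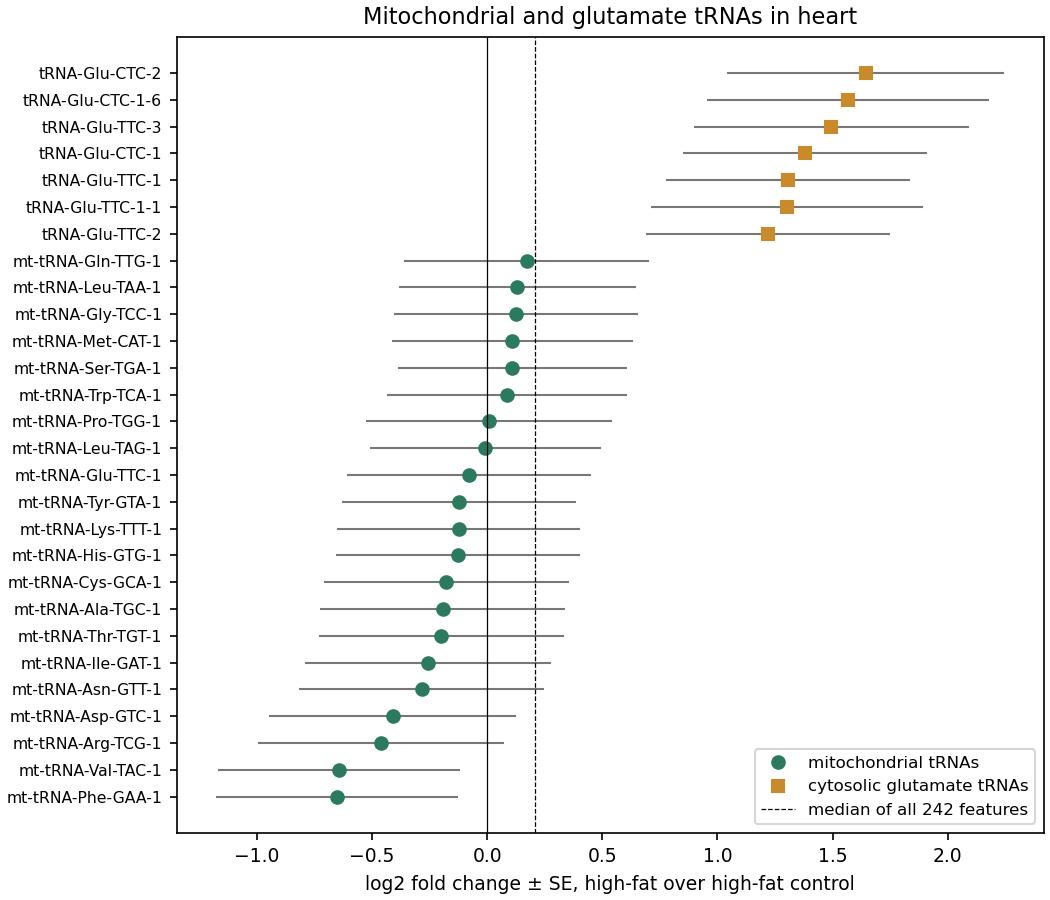
Log2 fold change with its SE (x axis, high-fat over high-fat control) for the 21 mitochondrial tRNAs tested (circles) and the 7 cytosolic glutamate tRNA names tested (squares), with the median of all 242 features as a dashed line. The mitochondrial tRNAs lie between -0.65 and 0.17 and the glutamate tRNAs between 1.22 and 1.64, and none of the 28 was called.

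Over all features, 242 passed the filter and 3 were called at an adjusted p under 0.05, or 1.24%, with 2 higher (0.826%) and 1 lower (0.413%) in high-fat hearts. At an unadjusted p under 0.05 there were 31 features, or 12.8%. A positive log2 fold change was found for 166 of the 242. Every high-fat library was above every control library for 15 features, or 6.2%, and below for 0. Beside that background, 5 of 7 glutamate names and 5 of 10 hairpin names did not overlap. Names within each of these sets can share reads, so they are not independent features. A feature with 0 reads in the shallow high-fat control replicate 4 can count as above but never as below. Since 0 reads there may stand for up to 265 RPM, the count of 15 against 0 is partly set by depth. The number called depended on single libraries: it was 17 without high-fat replicate 1, 14 without high-fat replicate 4, 6 without high-fat control replicate 2, 0 without high-fat control replicate 3 (22 at an unadjusted p under 0.05) and 1 without high-fat control replicate 5. In the 9-library fit it was 13 of 191, or 6.81%, and with DESeq2 it was 0, with 26 at an unadjusted p under 0.05.

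**Figure D4:**
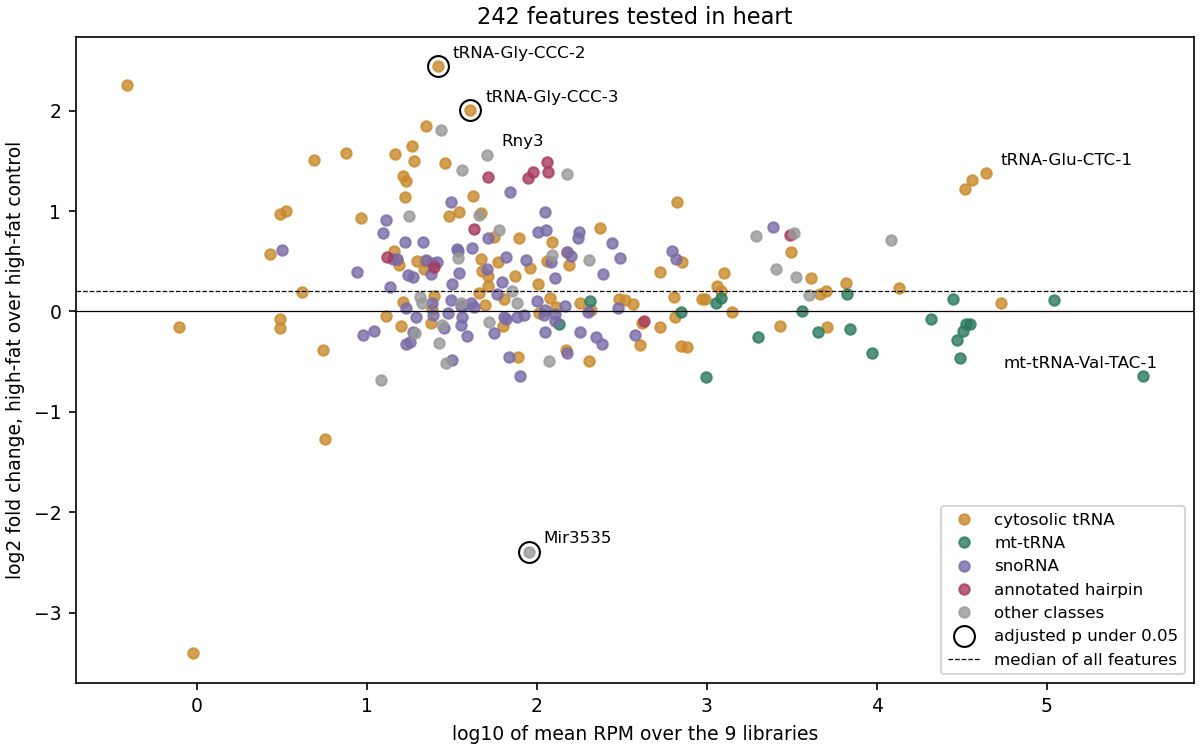
Log2 fold change (y axis, high-fat over high-fat control) against the log10 of the mean RPM of the 9 libraries (x axis) for the 242 features tested, coloured by class; open circles mark the 3 features called, and the dashed line is the median of 0.21. The called features are scarce, with mean levels of 26.4, 40.7 and 90.4 RPM, and the abundant glutamate tRNAs and mt-tRNA-Val-TAC-1 are not among them.

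The 2 features that rose are glycine tRNA names with the anticodon CCC, which reads GGG. tRNA-Gly-CCC-2 had 30, 17, 14 and 51 reads in high-fat hearts, or 43.4, 51.9, 28.4 and 81.3 RPM. In high-fat control hearts it had 13, 1, 2, 0 and 2 reads, or 19.6, 3.36, 5.71, 0 and 3.79 RPM. Every high-fat library was above every control library, although the 0 in control replicate 4 says little at its depth. The log2 fold change was 2.44 ± 0.58 (SE), about 5.44-fold, with an adjusted p of 0.00667 (edgeR). The call was lost without high-fat control replicate 3 (adjusted p = 0.0662), without high-fat control replicate 5 (0.0503), with DESeq2 (0.168) and over all entries as deposited (0.304).

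tRNA-Gly-CCC-3 had 60.8, 61.03, 60.9 and 113 RPM in high-fat hearts, against 31.7, 13.4, 19.99, 0 and 5.68 RPM in high-fat control hearts. The groups again did not overlap. Its log2 fold change was 2.004 ± 0.52 (SE), 4.01-fold, with an adjusted p of 0.0102 (edgeR). The adjusted p was 0.0662 without high-fat control replicate 3, 0.172 without high-fat control replicate 5, 0.0783 with limma-voom, 0.168 with DESeq2 and 0.423 over all entries. The summed difference in reads between the 2 names over the 9 libraries was 34.3% of the reads of tRNA-Gly-CCC-3. How the authors divided reads among near-identical tRNA names is not given, so the 2 calls may share reads.

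The main glycine tRNA with this anticodon did not pass the test. tRNA-Gly-CCC-1 stood at 791, 516, 465 and 1076 RPM in high-fat hearts and at 902, 631, 980, 353 and 1190 RPM in high-fat control hearts. The groups overlapped, with a log2 fold change of -0.35 ± 0.52 (SE; adjusted p = 0.969, edgeR). The called names thus hold a small part of the reads with this anticodon, and the other glycine names tested ran from -1.27 to 0.60.

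The feature that fell is listed as Mir3535 and, with identical counts in all 111 libraries, as Gm24148, which GENCODE annotates as a small nucleolar RNA inside the nucleolin gene Ncl. The mature microRNA and the annotated small nucleolar RNA start at the same base on the minus strand of chromosome 1, the microRNA at chr1:86352062-86352087 and Gm24148 at chr1:86352008-86352087 (GRCm38, RefSeq and GENCODE M21). The first is shown with its seed, bases 2 to 8, in capitals, and the second with the stretch of the microRNA in capitals.
mmu-miR-3535: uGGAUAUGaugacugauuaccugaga
Gm24148: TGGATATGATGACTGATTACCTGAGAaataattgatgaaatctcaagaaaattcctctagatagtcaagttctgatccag
The deposited counts do not separate these names, and a retained-intron exon of Ncl overlaps part of the locus, so reads of either RNA or of Ncl cannot be told apart.

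Mir3535 had 6, 0, 8 and 8 reads in high-fat hearts, or 8.69, 0, 16.2 and 12.7 RPM. In high-fat control hearts Mir3535 had 34, 1, 30, 7 and 9 reads, or 51.4, 3.36, 85.7, 618 and 17.1 RPM. The groups overlapped through control replicate 2, and the highest value came from 7 reads in the shallow control library. The log2 fold change was -2.39 ± 0.61 (SE), with an adjusted p of 0.0102 (edgeR). Without high-fat control replicate 1, 3 or 4, and in the 9-library fit, the feature no longer passed the filter on low counts. The adjusted p was 0.167 with RLE factors, 0.206 with total counts, 0.184 with limma-voom, 0.215 with DESeq2 and 0.501 over all entries.

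**Figure D5:**
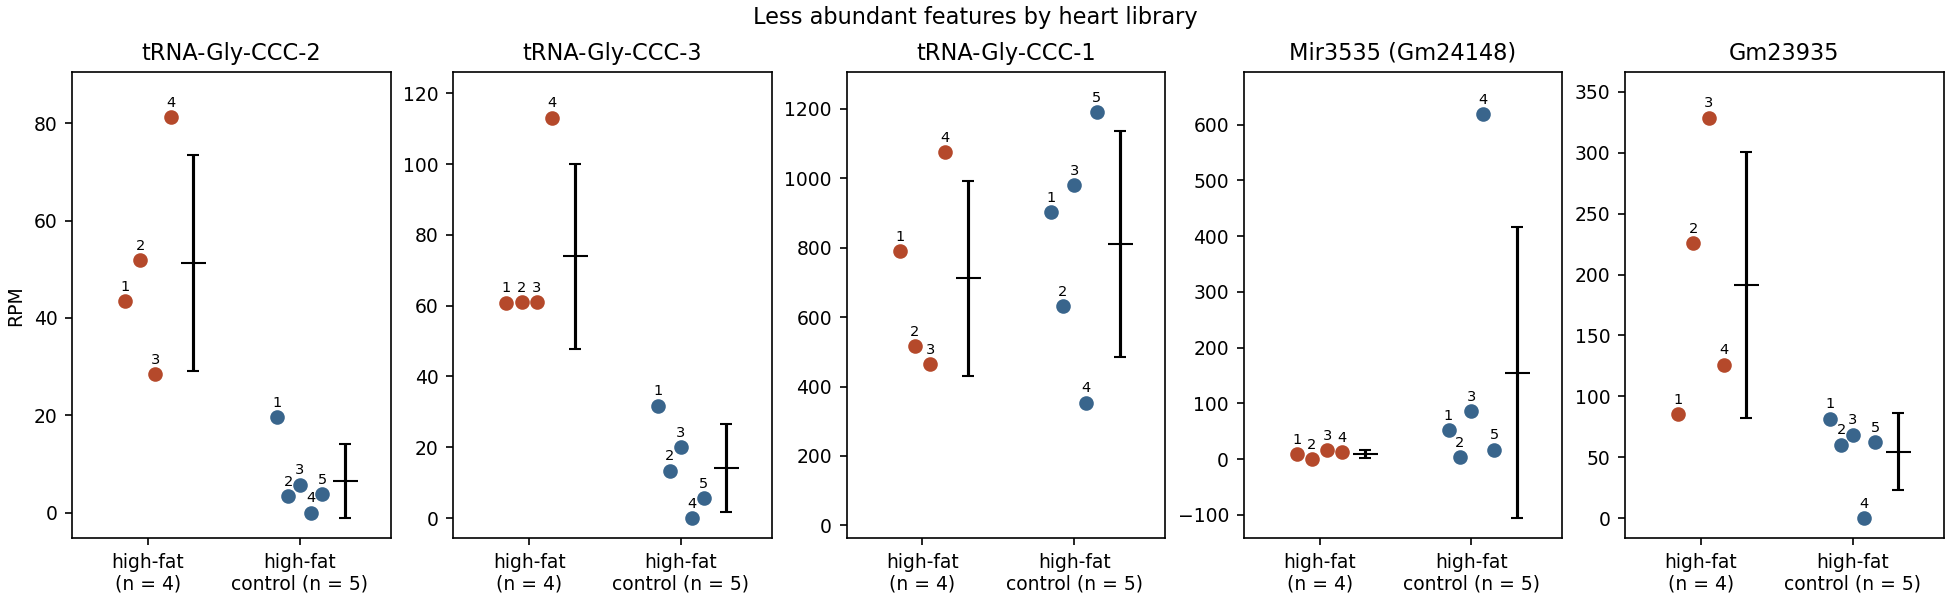
Level in RPM (y axis) of the 3 called features, of the main glycine tRNA tRNA-Gly-CCC-1 and of the hairpin Gm23935 in each high-fat and high-fat control heart library; numbered points are replicates, and bars are mean ± SD. tRNA-Gly-CCC-2 and tRNA-Gly-CCC-3 separate the groups, tRNA-Gly-CCC-1 overlaps, and control replicate 4 sets the top of Mir3535 at 618 RPM.

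Annotated microRNA hairpins were the 1 class of 9 whose shares did not overlap between the diets. The class follows the GENCODE annotation, and whether its reads come from microRNAs was not tested. They took 0.462%, 0.616%, 0.712% and 0.372% of reads in high-fat hearts and 0.320%, 0.311%, 0.229%, 0.336% and 0.328% in high-fat control hearts. Each high-fat library was above each control library. The exact permutation p was 0.0159, the smallest possible, with an adjusted p of 0.0952. As a share of non-mitochondrial reads the difference turned round to -0.05115 percentage points, so the direction depended on the denominator. Of 28 hairpin names 10 were tested, 9 were positive, the median log2 fold change was 1.07 and none was called.

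Most of the hairpin reads, between 68.0% and 89.5% in a library, were listed under Gm47295. Its annotation (chr12:69159518-69159596, plus strand) lies over the 3′ end of Rn7s1, the 7SL RNA of the signal recognition particle (chr12:69159295-69159594, plus strand), and its counts differed from those of Rn7s1 by 5.33% of the Rn7s1 total over the 9 libraries. Reads of the 2 names cannot be told apart. Without Gm47295 the hairpins took 0.0992%, 0.143%, 0.189% and 0.0927% of reads in high-fat hearts and 0.0970%, 0.0655%, 0.0731%, 0.0353% and 0.0926% in high-fat control hearts. These groups overlapped, since high-fat replicate 4 lay below control replicate 1.

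Of the 5 hairpin names without overlap, 4 are near-identical in sequence, and the other is Mir677. The 4 are printed with capitals at bases that differ from Gm23935, on GRCm38: Gm23935 at chr16:11144125-11144181 (plus strand), Gm24270 at chr9:56223715-56223771, Gm24187 at chr13:9834469-9834525 and Gm25911 at chr1:167340369-167340424 (all minus strand).
Gm23935: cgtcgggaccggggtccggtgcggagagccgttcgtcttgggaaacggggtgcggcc
Gm24270: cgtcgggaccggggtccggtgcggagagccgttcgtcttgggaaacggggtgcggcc
Gm24187: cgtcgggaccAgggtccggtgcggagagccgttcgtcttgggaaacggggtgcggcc
Gm25911: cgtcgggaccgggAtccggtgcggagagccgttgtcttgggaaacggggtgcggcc
Gm24270 is identical to Gm23935 over its 57 bases, Gm24187 carries G11A and Gm25911 carries G14A and lacks 1 base, with positions counted from the 5′ end of Gm23935. Reads of one can therefore be listed under the others, and the 4 names are not 4 independent measurements.

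Gm23935 had 85.4, 226, 329 and 125.9 RPM in high-fat hearts and 81.6, 60.4, 68.6, 0 and 62.5 RPM in high-fat control hearts. The lowest high-fat library was only just above the highest control library. The log2 fold change was 1.49 ± 0.50 (SE; adjusted p = 0.113, edgeR). Those of Gm24270, Gm25911 and Gm24187 were 1.39, 1.34 and 1.33, each with an adjusted p of 0.118. Mir6236, a further hairpin name, had 55.02, 162, 262 and 175 RPM in high-fat hearts and 61.97, 53.7, 48.6, 177 and 60.6 RPM in high-fat control hearts. Here high-fat replicate 1 lay among the controls, and the log2 fold change was 1.38 ± 0.49 (SE; adjusted p = 0.118, edgeR).

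Rny3, a Y RNA that binds the Ro60 protein (chr6:47781624-47781725, plus strand), had 63.7, 48.8, 183 and 43.02 RPM in high-fat hearts, against 42.3, 16.8, 39.99, 0 and 18.9 RPM in high-fat control hearts. The groups did not overlap, by a margin of under 1 RPM, and the log2 fold change was 1.56 ± 0.49 (SE; adjusted p = 0.0787, edgeR). Without high-fat replicate 3 it was 0.80. The other Y RNA tested, Rny1, had one of 0.56 ± 0.46, and Rmrp, the RNA of RNase MRP, which cuts ribosomal RNA precursors, had one of 1.40 ± 0.52 (SE; adjusted p = 0.118, edgeR).

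Rn7s1, the 7SL RNA, had a mean of 4354 ± 1218 RPM in high-fat hearts (SD, n = 4) and 2427 ± 560 RPM in high-fat control hearts (SD, n = 5), with a log2 fold change of 0.78 ± 0.53 (SE; adjusted p = 0.680, edgeR). Gm26461, whose first 100 bases occur unchanged within Rn7s1, had 174, 238, 368 and 105 RPM in high-fat hearts and 69.5, 77.2, 48.6, 177 and 100 RPM in high-fat control hearts. Its log2 fold change was 1.37 ± 0.51 (SE; adjusted p = 0.118, edgeR), and the overlap came from the shallow control library, where 177 RPM is 2 reads. Rn7sk, the 7SK RNA that holds back transcription elongation factor P-TEFb, had a log2 fold change of 0.51 ± 0.49 (SE). Gm24447, whose first 100 bases occur unchanged within Rn7sk, had 51 of its 61 high-fat reads in replicate 3. Its log2 fold change was 1.81 ± 0.63 (SE; adjusted p = 0.118, edgeR) and turned to -0.59 without high-fat replicate 3. The range over all alternatives was -0.59 to 2.33.

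Small nucleolar RNAs, which guide modification of ribosomal RNA, had a median log2 fold change of 0.21 over 84 tested names, the same as the median of all features. None of the 84 was called. The called Mir3535, whose counts are also listed as the small nucleolar RNA Gm24148, was kept under its microRNA name and counted among other RNAs. The 44 C/D names tested had a median of 0.38 and the 5 H/ACA names one of 0.05. Gm26457 was the small nucleolar RNA with the lowest p, at 1.19 ± 0.48 (SE; adjusted p = 0.175, edgeR). Its levels were 40.5, 116, 162 and 124 RPM in high-fat hearts and 48.4, 53.7, 39.99, 0 and 45.5 RPM in high-fat control hearts, so high-fat replicate 1 was inside the control range. Spliceosomal RNAs had a median of 0.08 over 13 names, and 5S ribosomal RNA, represented by 1 feature, had a value of 0.16.

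High-fat replicate 3 was the highest of the 9 libraries for Rny3, Mir6236 and the 4 near-identical hairpin names. The 6 names used as epididymis and sperm markers, which include Gm23935, Gm24270, Gm24187 and Gm26461, summed to 411, 806, 1231 and 419 RPM in high-fat hearts and 298, 232, 240, 177 and 275 RPM in high-fat control hearts, without overlap. All 6 of these names had reads in the 9 libraries, and whether they are specific to epididymis or sperm was not tested. The first 100 bases of Gm26461 also occur in Rn7s1, so its reads may be of 7SL RNA. Since Gm23935, Gm24270, Gm24187 and Gm26461 were described above, the sum repeats their reads and is not a separate result. The 177 RPM of control replicate 4 is below the limit of 265 RPM in that library. Of the 276 piRNA precursors, which mark the male germ line, 215 had 0 reads in the 9 libraries, and their summed level was 34.7, 61.03, 217 and 19.1 RPM in high-fat hearts and 37.8, 36.9, 31.4, 353 and 39.8 RPM in high-fat control hearts. High-fat replicate 3 and control replicate 4, where 353 RPM is 4 reads, were the high libraries. The part of either list in the hairpin result was not tested.

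The effect in heart was then set beside that of the same diets in the other 5 tissues. In an edgeR fit of all high-fat and high-fat control libraries, the heart effect differed from the mean effect of liver, testis, caput epididymis, cauda epididymis and sperm for 0 of 379 features, or 0%, with 3 at an unadjusted p under 0.05. Against liver alone it was 0 of 213, with 34 at an unadjusted p under 0.05. The lowest p belonged to Gm26457, where the heart effect exceeded the mean of the others by 1.40 ± 0.59 (SE) on the log2 scale, with an adjusted p of 1.00. Some features could not be called in the fit of all tissues, since their SE was very large. Among them was Mir3535, with a difference of -3.38 ± 7191 (SE), and its heart minus liver difference was -4.20 ± 1.91 (SE; adjusted p = 0.282, edgeR). The 0 calls therefore do not show that the tissues respond alike.

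For the glutamate tRNAs the heart effect exceeded the mean of the other tissues by 0.60 ± 0.66 for tRNA-Glu-CTC-1, 0.69 ± 0.69 for tRNA-Glu-TTC-1 and 0.76 ± 0.69 for tRNA-Glu-TTC-2 (SE, log2 scale, adjusted p = 1.00 for each). None of these differences was called. In that fit the log2 fold changes of these 3 names were 1.48, 1.46 and 1.39 in heart, below the 2.07, 1.85 and 1.78 in liver. Other RNAs also had high values in liver, with 3.11 for mt-Rnr1 and 3.25 for Rn7s1, while tRNA-Asp-GTC-1 had -0.77. In the fit of heart and liver alone, heart minus liver was -0.43 ± 1.11, -0.18 ± 1.25 and -0.16 ± 1.22 (SE, log2 scale), with an adjusted p of 0.860 for tRNA-Glu-CTC-1 and 0.933 for the others (edgeR). The median glutamate share in caput epididymis was 34.9% on high-fat and 10.0% on high-fat control diet, in liver 7.62% and 6.46%, in testis 9.74% and 11.6%, in cauda epididymis 3.92% and 4.27%, and in sperm 0.913% and 0.569%. In heart it was 17.6% on high-fat and 5.87% on high-fat control diet. On the share scale the difference was thus larger in heart than in liver, where high-fat libraries ran from 0.665% to 14.6%. Among heart libraries on the other diets the median glutamate share was 5.46% on the low-protein diet, with a range of 1.49% to 22.7%, and 2.14% on its control diet, with a range of 2.02% to 2.56%. High-fat hearts therefore lay inside the range of the low-protein hearts.

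Within the heart fit, the low-protein diet against its own control called 182 of 242 features, or 75.2%, and the difference between the high-fat and low-protein effects 145 of 242, or 59.9%. Both control diets also differed from each other, with 139 of 242 features (57.4%) called for high-fat control against control and 146 (60.3%) for high-fat against control. The columns of high-fat and high-fat control hearts lack the S number that the columns of the other heart groups carry, so a difference in handling and a difference in diet between those pairs cannot be told apart. For tRNA-Gly-CCC-2 the high-fat effect of 2.44 stood beside a low-protein effect of -2.67 ± 0.76, and for Mir3535 that of -2.39 beside 4.31 ± 0.94 (SE, log2 scale). For both, the difference of the effects was called, with adjusted p of 4.65e-07 and 8.28e-08 (edgeR). Both features are scarce in the high-fat and high-fat control hearts, and the difference of the effects was not refitted under the alternatives. tRNA-Glu-CTC-1 had effects of 1.38 and 1.12, and their difference of 0.26 was not called (adjusted p = 0.790).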

How the data were processed

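The authors deposited raw read counts, whole numbers per small RNA name, without normalization. The submitters' processing notes list cutadapt, DESeq2 and build mm10, with no version or role. The aligner, counting rule, use of strand and meaning of the column code gt65 are not given in sources used here. Sample titles gave the groups and replicate numbers, and the labels give no batch. The design was written for entries of the table. Entries listing the same reads (summed difference under 5% of the kept entry) were then reduced from 1268 to 1042 features, which hold 51.2% to 57.2% of the listed reads of these 9 libraries. RPM is reads per 1000000 over these features.

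The test was that of edgeR 4.0.16 (R 4.3.3, TMM factors, filterByExpr, robust quasi-likelihood F test) on all 19 heart libraries, with Benjamini-Hochberg adjustment over the 242 features tested and a call at 0.05. Class shares were compared by exact permutation, and standard errors were derived from the F statistic. The test was also run on simulated counts, whose spread was set in advance and not estimated from these libraries. Alternatives used DESeq2 1.42.0 and limma 3.58.1. Replicates differed by a chi-square per degree of freedom of at least 9.17, so no pair of libraries of a group agreed within counting error, which does not show that they came from different animals. Positions and sequences came from GENCODE M21 and RefSeq on GRCm38, and 508 names matched GENCODE. Named features are those called, the 10 with the lowest p, all mitochondrial tRNAs, the 10 most abundant other features and the 5 with the lowest p in the tissue interaction, and others were chosen after their values were seen. The members and lists were chosen with earlier results of these data known. Tests of amino acid families were added after the data were seen. Mature cytosolic tRNA sequences were not used here.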

Additional observations from a re-analysis of the deposited data

Results flagged for a closer look

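Single libraries stood apart from the rest of their group in 14 of 110 groups of values checked with Dixon's test, where chance gives about 1 in 20. In the high-fat group, replicate 4 was high for tRNA-Gly-CCC-3 at 113.13 RPM, replicate 3 for Rny3 at 182.8 RPM and for Gm24447 at 103.6 RPM, and replicate 1 for tRNA-Gln-CTG-2 at 9012 RPM. In the high-fat control group, the shallow replicate 4 was high for Mir3535 at 618.4 RPM, Gm24447 at 88.3 RPM, Mir6236 and Gm25869 at 176.7 RPM each and piRNA precursors at 0.0353% of reads. The same library was low for mt-tRNA-Phe-GAA-1 at 441.7 RPM and for Gm23935 and Gm26457 at 0 RPM each. As 3 reads stand at 265 RPM in that library, its flags rest on few or 0 reads. Control replicate 3 was low for the hairpin share at 0.229% of reads and high for mt-tRNA-Leu-TAG-1 at 1728 RPM. Reads listed under antisense tRNA names, which enter no comparison, numbered 6 in the high-fat libraries and 1 in the high-fat control libraries.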

How the results depend on the processing

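The count of 3 called features became 13 in the 9-library fit, 1 with limma-voom, 0 with DESeq2 (26 at an unadjusted p under 0.05), 0 over all entries as deposited (19 at an unadjusted p under 0.05), and ran from 0 to 17 when single libraries were left out. It was 2 with RLE factors, 2 with total counts and 3 without the filter. With group means removed, libraries of the same replicate number had correlations of 0.09, 0.10, -0.23 and -0.11 for numbers 1 to 4. So few values show no clear pairing and cannot exclude one. With the replicate block 2 features were called, tRNA-Gly-CCC-2 and Mir3535. In that fit tRNA-Gly-CCC-3 had an adjusted p of 0.0958 (edgeR), and the median of the mitochondrial tRNAs was 0.06. With non-mitochondrial reads as denominator the difference turned to -1.32 percentage points for snoRNAs, -1.002 for snRNAs, -0.615 for 5S ribosomal RNA, -0.05115 for hairpins and -0.233 for other RNAs, none past the threshold. On the centred log ratio scale it turned to -0.0597, -0.119 and -0.117 for snoRNAs, snRNAs and 5S ribosomal RNA. The piRNA share difference ran from -0.00616 to 0.00466 with single libraries left out. The cause of these changes was not tested. Among 821 values of named features under the alternatives, 15 lost and 29 gained the threshold, and 93 values of 23 uncalled features changed sign. The interaction with other tissues stayed at 0 calls with liver alone, RLE factors and the replicate block (0 at an unadjusted p under 0.05 in the last). The fit of 9 libraries without high-fat control replicate 4, chosen after seeing the data, called 4 features. Depth limits high-fat control replicate 4 most.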
